A study of Homo sapiens with 3 samples.

Results

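A stop codon is read by the ribosome together with the nucleotide that follows it, so that UGA makes up 4 different stop signals. The results below concern the signals UGAA and UGAU, that is, UGA stop codons whose next nucleotide (the +4 position, counting the U of the stop codon as +1) is A or U. Members were the transcripts listed in all 3 deposited tables with a mean number of reads on the coding sequence (CDS) at or above the minimum used in the study, a readthrough region of at least 18 nt and at least 1 further stop codon in frame in the 3′UTR. The rule held for 1127 transcripts (762 UGAA and 365 UGAU) of the 5438 that passed the same limits with any stop codon. The other UGA signals had 524 (UGAC) and 996 (UGAG) transcripts. No measure of readthrough entered the rule.

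The libraries are ribosome profiling libraries of HEK293T cells, derived from human embryonic kidney and transformed with the SV40 large T antigen. Untreated cells (0 µg/mL, 2 libraries, Untreated A and Untreated B) were compared with cells given 500 µg/mL G418 (1 library, G418 A), and the labels give a duration of 24 h for each. The labels do not say whether the untreated libraries came from separate cultures, although the study calls its deeper libraries biological replicates, and 1 G418 library was analysed here. The tables rested on 5857230, 9477972 and 7216039 reads assigned to transcripts in Untreated A, Untreated B and G418 A, and members held 682278, 1082461 and 840452 CDS reads.

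In human cells a stop codon in the ribosomal A site is bound by the release factor eRF1, which competes there with near-cognate tRNAs. When a tRNA is accepted instead, the ribosome goes on in the same frame until it reaches the next stop codon in the 3′UTR (the 3′TC), a process called stop codon readthrough (SCR). UGA is known as the leakiest of the stop codons, and the +4 nucleotide is drawn into the decoding site with it. G418 is an aminoglycoside that binds the decoding centre of the ribosome and lowers its accuracy. Readthrough was measured as the ribosome readthrough score (RRTS), the density of ribosome-protected fragments between the normal termination codon (NTC) and the 3′TC divided by the density on the CDS, given here in percent. A value of 100% would mean that ribosomes were as dense past the stop codon as before it. For a class of transcripts, reads were summed over the readthrough regions and divided by the summed reads that the CDS densities would give there (pooled RRTS), with a 95% interval over its transcripts.

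The stop codons that stood at the ends of the range in G418 A are shown with their sequence, since the signal is part of it. Each line gives the position of the stop codon in hg38 and the transcript from 15 nt before to 12 nt after it, with the stop codon and the +4 nucleotide in capitals. The 5 UGAA transcripts with the highest RRTS in G418 A, by the lower bound of the exact Poisson 95% interval, are shown first.
SHKBP1 (chr19:40591205-40591207, plus strand, exon 18 of 18): aaugaaacuuccuuuUGAAcaacgcagcug
PPM1D (chr17:60663550-60663552, plus strand, exon 6 of 6): acuguuuguguuugcUGAAaugcaucuggg
ZNF430 (chr19:21058019-21058021, plus strand, exon 5 of 5): gaaacccuacaaaugUGAAgauuguggcaa
SP4 (chr7:21511267-21511269, plus strand, exon 6 of 6): aacauggaagaauucUGAAaaguuauuuau
ATG12 (chr5:115831804-115831806, minus strand, exon 4 of 4): ucucaggcguggggaUGAAccacaaagaaa

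The 5 UGAU transcripts at the same end follow.
ZCCHC14 (chr16:87410280-87410282, minus strand, exon 13 of 13): cuggacuccacagauUGAUauuuuucucug
FAM168B (chr2:131052903-131052905, minus strand, exon 6 of 7): gugcccccucaguggUGAUcaccugcaaau
TRMT112 (chr11:64316861-64316863, minus strand, exon 4 of 4): gaggaaacugagaguUGAUugugccaggcg
RSBN1 (chr1:113765980-113765982, minus strand, exon 7 of 7): ucaaccacuucugugUGAUauguacauauu
SUCLA2 (chr13:47943371-47943373, minus strand, exon 11 of 11): uuucaguugccaauaUGAUcugaaaaccca

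At the low end, chosen by the upper bound of the same interval, the first 5 UGAA transcripts whose position could be found in the reference were these.
CD164 (chr6:109368279-109368281, minus strand, exon 7 of 7): ccagauuuaaagaaaUGAAaggauaccauu
ARL2 (chr11:65021853-65021855, plus strand, exon 5 of 6): auuuucacagcugacUGAAccacuccagau
TSG101 (chr11:18469204-18469206, minus strand, exon 10 of 10): aagacuucagugcccUGAAcgguuagagaa
HIST1H2BN (chr6:27852132-27852134, plus strand, exon 3 of 3): uauauugcaagagauUGAAugcagaaagaa
PRPS1 (chrX:107650740-107650742, plus strand, exon 7 of 7): ccucuugggcccaaaUGAAcauuguaccau

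The first 5 such UGAU transcripts were these.
ARPC5 (chr1:183623457-183623459, minus strand, exon 4 of 4): aaggugccucuuguaUGAUuccagauaugg
HIST1H2AC (chr6:26124623-26124625, plus strand, exon 1 of 2): aaggccaagggcaagUGAUuugacagguug
PFDN6 (chr6:33296878-33296880, plus strand, exon 4 of 4): ccagacucauuuuucUGAUauucagagagg
NDUFA11 (chr19:5892917-5892919, minus strand, exon 4 of 4): ucgaaccccagaacuUGAUucuuuccuugu
METTL5 (chr2:169810339-169810341, minus strand, exon 8 of 8): aaaaagaaaucagucUGAUcaucuaaauca

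The nucleotide after the capitals is the +5 position, and the values of these genes are given further on.

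UGAA and UGAU stop codons were read through at levels whose difference was not detectable in any library, and both stood far higher in G418 A than in untreated cells. The pooled RRTS of UGAA was 2.43% (95% interval 1.92 to 3.07) for Untreated A, 1.53% (1.14 to 2.04) for Untreated B and 33.6% (29.2 to 38.7) for G418 A. The pooled RRTS of UGAU was 2.13% (1.60 to 2.84), 1.57% (1.08 to 2.28) and 36.8% (31.2 to 43.4) in the same libraries. In each library the intervals of the classes overlapped over most of their width. Over all 5438 transcripts the values were 1.61%, 1.27% and 21.8%. The ratio of UGAU over UGAA was 0.877 (95% interval 0.606 to 1.27), 1.03 (0.643 to 1.65) and 1.09 (0.881 to 1.36), the last being that of G418 A. None of the 3 ratios passed the threshold in a Poisson-type fit of the reads over all transcripts, two-sided (n = 5438 transcripts, adjusted p = 0.729, 0.900 and 0.729, Benjamini-Hochberg over 3 tests). In G418 A the interval leaves room for a UGAU level from 0.881 to 1.36 times that of UGAA, and in Untreated B the ratio fell on the other side of 1 under several other settings. These p-values measure the spread of transcripts within a library, not the spread between cultures.

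**Figure D1:**
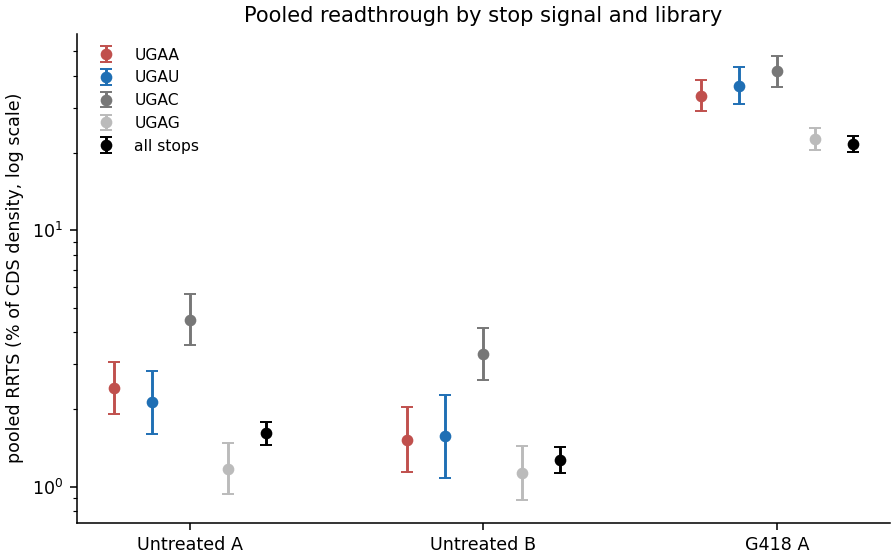
Pooled RRTS in percent of the CDS density (log axis) for each UGA signal and for all stop codons, by library, with points for values and bars for 95% intervals over transcripts. UGAA and UGAU lie beside each other in each library, at 33.6% and 36.8% in G418 A, between UGAG at 22.7% and UGAC at 41.8%.

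Over single transcripts the classes also lay close together. In G418 A the median RRTS was 30.4% for UGAA and 31.6% for UGAU, against 18.6% over all stop codons, and the quartiles were 10.4% and 61.5% for UGAA and 9.85% and 69.7% for UGAU. The probability that a UGAU transcript had a higher RRTS than a UGAA transcript, with ties counted equally, was 0.521 for G418 A, 0.472 for Untreated A and 0.480 for Untreated B, where 0.5 would mean no tendency. In the untreated libraries the median was 0% in both classes, since most readthrough regions held no read. At least 1 read in the region was found for 31.5% of UGAA (Wilson 95% interval 28.3 to 34.9) and 24.7% of UGAU transcripts (20.5 to 29.3) in Untreated A, where all stop codons gave 23.8%. In Untreated B the shares were 24.3% (21.4 to 27.4) and 19.5% (15.7 to 23.8) beside 22.1%, and in G418 A they were 81.5% (78.6 to 84.1) and 80.8% (76.5 to 84.5) beside 75.9%. Of the UGAA transcripts with a read in Untreated A or in Untreated B, 114 had one in both (47.5% of the former and 61.6% of the latter), and of the UGAU transcripts 33 did (36.7% and 46.5%). The same overlap was not computed over all stop codons, so it cannot be called particular to either class. The share of transcripts with at least 1 read was lower for UGAU than for UGAA in each untreated library, a difference that was not tested. Such shares depend on depth and on region length (a median of 63 nt for UGAA and 60 nt for UGAU).

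**Figure D2:**
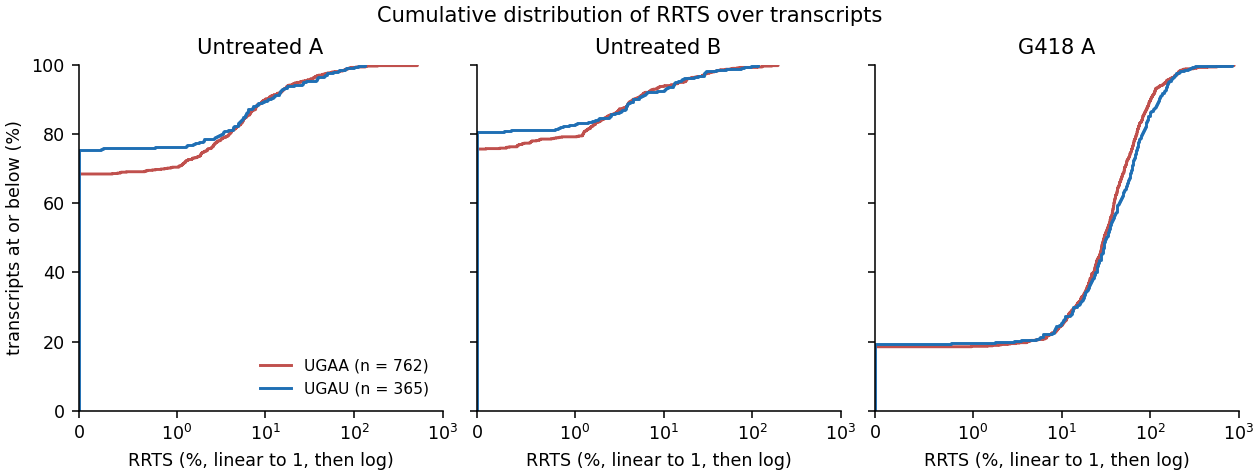
Cumulative share of transcripts (percent) at or below an RRTS (percent, linear up to 1 and then log) for UGAA and UGAU in each library. The curves start at the share of transcripts with no read in the region and run close together, with medians of 30.4% and 31.6% in G418 A.

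The pooled RRTS of both classes lay between those of the other UGA signals. UGAC, known as a permissive signal, had a pooled RRTS of 4.49% and 3.30% in the untreated libraries and 41.8% in G418 A, and UGAG had 1.18%, 1.13% and 22.7%. UGAA was lower than UGAC in all 3 libraries, with ratios of 0.541 (adjusted p = 5.2e-04), 0.462 (adjusted p = 1.4e-04) and 0.805 (adjusted p = 0.0436, over 12 tests of the same fit, n = 762 UGAA and 524 UGAC transcripts). UGAU was lower than UGAC in the untreated libraries, with ratios of 0.475 (adjusted p = 1.7e-04) and 0.476 (adjusted p = 0.0016), and in G418 A the ratio was 0.880 (95% interval 0.709 to 1.09, adjusted p = 0.250, n = 365 UGAU transcripts). UGAA was higher than UGAG in Untreated A (2.07-fold, adjusted p = 6.3e-05) and G418 A (1.48-fold, adjusted p = 4.3e-05), and so was UGAU (1.81-fold, adjusted p = 0.0023, and 1.62-fold, adjusted p = 1.0e-05, n = 996 UGAG transcripts). In Untreated B the ratios over UGAG were 1.35 for UGAA (95% interval 0.929 to 1.98, adjusted p = 0.137) and 1.40 for UGAU (0.895 to 2.18, adjusted p = 0.154), with n = 996 UGAG transcripts. Some of these calls rested on the set of transcripts: with regions of at least 60 nt, UGAA against UGAC no longer passed in Untreated A (ratio 0.661, adjusted p = 0.0606) or in G418 A (0.815, adjusted p = 0.141), nor did UGAU against UGAG in Untreated A (1.50, adjusted p = 0.110; n = 405 UGAA and 187 UGAU transcripts). With at least 500 CDS reads, UGAA against UGAC in G418 A gave 0.817 (adjusted p = 0.178) and UGAA against UGAG in Untreated B passed (1.65, adjusted p = 0.0427, n = 332 UGAA transcripts).

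The nucleotide after the signal (+5) was read from the reference for 742 UGAA and 348 UGAU transcripts. G was the commonest at +5 in both classes, in 39.2% of UGAA and 38.2% of UGAU transcripts, and A stood there in 27.9% of UGAA and 11.2% of UGAU. In G418 A the pooled RRTS of UGAA was 40.3% with A at +5, 37.5% with C, 30.8% with G and 39.4% with U. For UGAU it was 45.7% with A, 31.7% with C, 39.7% with G and 32.8% with U. The order of the +5 nucleotides was not the same in both classes, and no test of +5 passed in any library (Wald test of the same fit over n = 742 UGAA or 348 UGAU transcripts, lowest adjusted p = 0.399, over 6 tests). The intervals were wide, from 27.3% to 76.3% for the 39 UGAU transcripts with A.

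With G418 the pooled RRTS rose by 31.6 percentage points in UGAA and by 34.9 in UGAU. The untreated mean was 1.98% ± 0.638 (SD, n = 2) for UGAA and 1.85% ± 0.394 (SD, n = 2) for UGAU. The value in G418 A was 17.0-fold higher for UGAA (95% interval over transcripts 13.97 to 20.7) and 19.9-fold higher for UGAU (15.6 to 25.3). For UGAA the fold was 13.8 over Untreated A alone and 22.0 over Untreated B alone, and for UGAU it was 17.3 and 23.4. The untreated libraries themselves differed 1.59-fold in UGAA and 1.35-fold in UGAU, far less than either differed from G418 A. The ratio of the folds, UGAU over UGAA, was 1.17 (0.855 to 1.60), so a larger fold was not detected in either class. UGAC had a fold of 10.7 (8.95 to 12.9), UGAG one of 19.8 (16.1 to 24.2) and all stop codons together one of 15.1. With 1 G418 library analysed here there is no replicate check of these folds. The CDS density behind the scores, scaled to the reads of each library, had a median log2 change of 0.05 for UGAA, 0.06 for UGAU and 0.07 over all stop codons. Such scaling by itself keeps the median near no change. These values therefore cannot show whether ribosome coverage of coding sequences changed as a whole.

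A fold could be given for single transcripts with at least 60 expected reads in the summed untreated libraries, and a transcript with no untreated read was put at 3 reads, which makes its fold a lower bound as far as the untreated count goes. RRTS was at least 4-fold higher in G418 A for 251 of 293 UGAA transcripts (85.7%) and for 89 of 112 UGAU transcripts (79.5%), where 70.5% of all 1973 such transcripts met the same limit. The median fold was 16.8 for UGAA and 13.4 for UGAU, beside 8.95 over all stop codons, with untreated counts of 0 at their bound (99 UGAA and 50 UGAU transcripts). The fold was below 1 for 15 UGAA and 7 UGAU transcripts, beside 185 of the 1973 with any stop codon. Of these, 10 UGAA, all 7 UGAU and 119 with any stop codon had no read in G418 A. Where the untreated count was 0 as well, a fold below 1 comes from the 3 reads put in and shows no fall. Without Untreated B the counts were 116 of 134 and 37 of 46, and the shares (86.6% and 80.4%) stayed near those above. Over all stop codons the count was then 641 of 936 (68.5%).

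**Figure D3:**
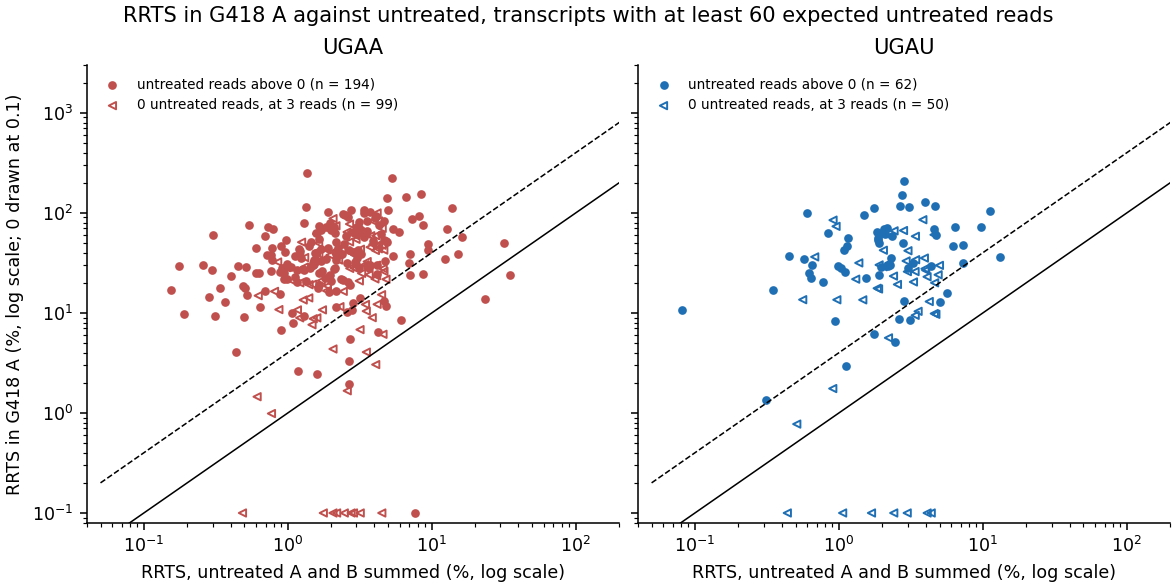
RRTS in G418 A against RRTS in the summed untreated libraries (percent, log axes) for 293 UGAA and 112 UGAU transcripts with at least 60 expected untreated reads. Filled points had untreated reads, open triangles had none and are drawn at 3 reads, the solid line marks equal values and the dashed line a 4-fold rise, and 251 and 89 transcripts lie on or above it.

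The genes at the high end in G418 A had readthrough regions at least as densely covered as their CDS. An RRTS above 100% was reached by 79 UGAA and 51 UGAU transcripts, together 11.5% of the members, where 7.36% of all transcripts did so. Their regions were short, with a median of 39 nt for UGAA and 48 nt for UGAU, and a median of 6.38 and 8.51 reads expected in G418 A. The 3′TC itself lies within the region. In UGAA the highest value belonged to SHKBP1, which has a region of 18 nt, of which the first 6 nt after the stop codon are left out of the score, and had 0 reads in each untreated library and 34 in G418 A, an RRTS of 890% (exact Poisson 95% interval 616 to 1243). PPM1D, which encodes a phosphatase that acts on p53, had 0 reads for Untreated A, 4 for Untreated B and 18 for G418 A, an RRTS of 778% (461 to 1230). The zinc finger gene ZNF430 (622%) and the transcription factor gene SP4 (569%) had 8 and 7 reads in G418 A and none in the untreated libraries. These 4 values rest on fewer than 4 expected reads each, so their size is poorly known although all were far above 100%.

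Deeper regions at the high end of UGAA belonged to ATG12, EMC6, CDC5L and BRI3BP. ATG12, a ubiquitin-like protein that is joined to ATG5 in autophagy, had 1 read from Untreated A, 0 from Untreated B and 89 from G418 A, an RRTS of 3.16%, 0% and 253% (203 to 311). EMC6, a subunit of the complex that inserts membrane proteins into the endoplasmic reticulum (ER), had 4, 0 and 77 reads, or 13.6%, 0% and 222% (175 to 277). CDC5L, a splicing factor of the PRP19 complex, had 1, 5 and 48 reads, or 5.05%, 18.1% and 237% (175 to 314). In each of them G418 A stood far above both untreated libraries. BRI3BP was high in every library (56.4%, 27.4% and 205%), and 90 nt of its region are annotated as CDS of a transcript in the reference.

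In UGAU the high end began with ZCCHC14 at 833% (416 to 1490) on 11 reads in G418 A and none in the untreated libraries. FAM168B had 0, 0 and 30 reads (301% in G418 A, 203 to 430). TRMT112, which activates several methyltransferases, combined a high value with depth: 4 reads from Untreated A, 1 from Untreated B and 135 from G418 A, or 6.42%, 0.874% and 211% (177 to 250). RSBN1 (322%), SUCLA2 (269%), a subunit of succinate-CoA ligase, and C17orf75 (280%) had 11, 17 and 11 reads in G418 A and at most 1 in an untreated library. EXOSC3, a subunit of the RNA exosome, had 2, 14 and 33 reads, or 14.6%, 74.6% and 193% (133 to 271). EXOSC3 was thus already high in Untreated B. LAMTOR5, a subunit of the Ragulator complex at the lysosome, had 0, 2 and 56 reads and an RRTS of 150% (113 to 195) in G418 A.

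Among members with at least 60 expected reads in G418 A (167 UGAA and 67 UGAU), the median RRTS was 29.9% for UGAA and 30.2% for UGAU, beside 17.4% over all stop codons. At this depth 13 of 1207 transcripts with any stop codon passed 100%. Of these, 3 were UGAA and 6 were UGAU, and all 9 were named here after their values were seen. In UGAU they were TRMT112, the metallothionein MT2A (128.2%, 109 to 150), the mRNA export factor GLE1 (116%), NIFK (114%), MTPN (112%) and RCC2 (103%). In UGAA they were IER3IP1 (115%), AKIRIN1 (108%) and the histone deacetylase HDAC1 (107%, 89.5 to 127). HDAC1 had 3 reads from Untreated A, 8 from Untreated B and 132 from G418 A, or 2.58%, 3.85% and 107%. MT2A had 6, 9 and 160 reads, or 5.99%, 3.26% and 128.2%, and its counts are uncertain because metallothionein genes are closely alike. At this depth, then, values above 100% were not confined to the shortest regions: that of GLE1 spans 261 nt and that of AKIRIN1 207 nt.

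The 8 transcripts at the low end of each class had few or no reads past the stop codon in G418 A although many were expected. In UGAA, CD164, a cell surface sialomucin, had 0 reads in each of the 3 libraries where 323 were expected in G418 A, which limits its RRTS to at most 1.14% (upper bound of the exact Poisson 95% interval). ARL2, a small GTPase with a role in tubulin folding, had 0, 0 and 2 reads (0.987% in G418 A, upper bound 3.57%). TSG101 of the ESCRT-I complex, the histone demethylase PHF8, PRPS1, which makes phosphoribosyl pyrophosphate, and RBM4B had no read in any library, with upper bounds of 4.62%, 4.97%, 6.58% and 7.01%. The nucleosome-binding protein HMGN2 was the deepest, with 18, 9 and 112 reads and an RRTS of 0.784%, 0.234% and 4.04% (3.33 to 4.86). Its reads are uncertain because near-identical copies of HMGN2 lie elsewhere in the genome. HMGN2 stood low in all libraries yet was 9.18-fold higher in G418 A (5.99 to 14.5). HIST1H2BN had 0, 0 and 2 reads, and reads of histone genes can be credited to a near-identical copy.

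In UGAU the low end was led by ARPC5, a subunit of the actin-nucleating Arp2/3 complex, with 0 reads in every library and 248 expected in G418 A (upper bound 1.49%). HIST1H2AC had 2, 6 and 9 reads (0.245%, 0.345% and 1.35%), and the prefoldin subunit PFDN6 had 0, 0 and 2 (0.774% in G418 A). The tRNA splicing endonuclease subunit TSEN34, the complex I subunit NDUFA11, the rRNA methyltransferase METTL5 and RCC1L had no read in any library, with upper bounds of 3.46%, 4.77%, 4.90% and 6.46%. SEC11A, a catalytic subunit of signal peptidase, had 0, 0 and 3 reads (1.75%, upper bound 5.13%). Of the 16 low-end transcripts 10 thus had no read past the stop codon in G418 A.

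**Figure D4:**
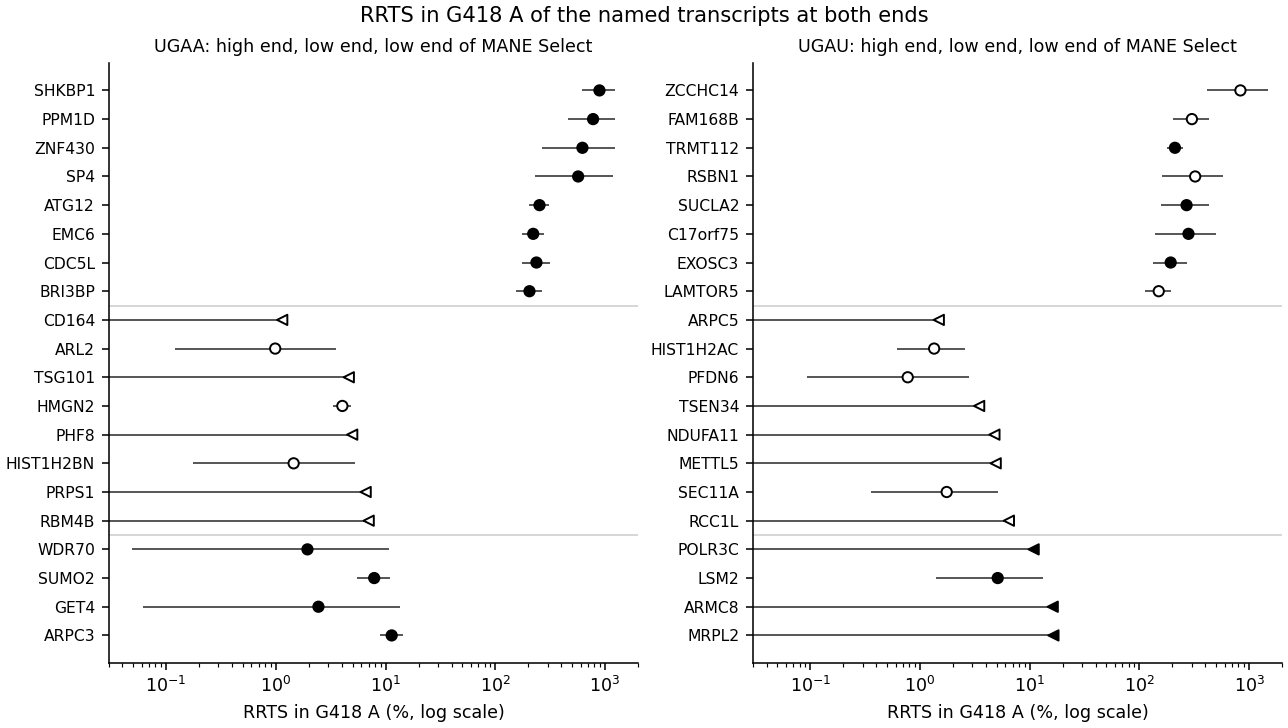
RRTS in G418 A (percent, log axis) of the named transcripts: in each panel 8 at the high end, 8 at the low end and, below the second line, the 4 lowest MANE Select transcripts. Circles are values, triangles mark the upper bound where no read was found, bars are exact Poisson 95% intervals, filled symbols are MANE Select and open symbols other transcripts. All 16 transcripts of the low end are open.

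None of the 16 low-end transcripts was the MANE Select transcript of its gene, the one that the NCBI and Ensembl annotations both name as representative. Of the members, 519 UGAA (68.1%) and 241 UGAU (66.0%) transcripts are MANE Select, near the 69.9% of all 5438. The pooled RRTS in G418 A was 39.7% (35.6 to 44.3) for MANE Select and 26.0% (19.6 to 34.4) for other UGAA transcripts, and 46.0% (39.9 to 53.1) against 23.2% (16.4 to 32.9) in UGAU. These intervals did not overlap within either class, and no test was run because the split was chosen after the low end had been seen. Of the MANE Select members with at least 60 expected reads in G418 A, 0 of 102 UGAA and 0 of 43 UGAU transcripts had an RRTS below 5%, which allows shares of up to 2.94% and 6.98%, while 7 of 65 and 8 of 24 other transcripts did. Over all stop codons 78 of 829 MANE Select and 107 of 376 other transcripts were below 5%. The fold of G418 A over untreated was 17.3 for MANE Select and 15.95 for other transcripts in UGAA, and 19.7 and 19.5 in UGAU. Whether the ribosomes counted on a CDS belonged to the listed transcript or to another transcript of the gene was not tested.

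Since the low end held no MANE Select transcript, the 4 lowest MANE Select members of each class were named as well, after their values had been seen. Their stop codons in UGAA are shown first.
WDR70 (chr5:37752571-37752573, plus strand, exon 18 of 18): aaaaaacguaaaauuUGAAgaaucucauuu
SUMO2 (chr17:75168339-75168341, minus strand, exon 4 of 4): acgggaggugucuacUGAAaagggaaccug
GET4 (chr7:895420-895422, plus strand, exon 9 of 9): cccaucgagcuggacUGAAcuggccaggcc
ARPC3 (chr12:110435155-110435157, minus strand, exon 7 of 7): ucaggaccuggacagUGAAgggagcccggg

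Those in UGAU follow.
POLR3C (chr1:145842418-145842420, plus strand, exon 15 of 15): accaugaagagacagUGAUccagaagaagc
LSM2 (chr6:31797757-31797759, minus strand, exon 5 of 5): cugcagcagaaacagUGAUggcuccuccuc
ARMC8 (chr3:138295890-138295892, plus strand, exon 22 of 22): cagcaguaccuggcaUGAUgggagugcccc
MRPL2 (chr6:43054274-43054276, minus strand, exon 7 of 7): gcuucugcccaaagcUGAUaucccuguacu

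SUMO2, a small ubiquitin-like modifier, had 3, 6 and 35 reads, or 0.835%, 1.26% and 7.88% (5.49 to 11.0) in Untreated A, Untreated B and G418 A. ARPC3, another subunit of the Arp2/3 complex, had 5, 2 and 71 reads, or 1.13%, 0.306% and 11.4% (8.88 to 14.3). Their intervals in G418 A lay below the 33.6% of the class, which follows from the way they were chosen. RRTS of SUMO2 and ARPC3 was still 7.30-fold (3.44 to 17.3) and 17.8-fold (8.21 to 45.9) higher than in the summed untreated libraries. WDR70 and GET4, which acts in the insertion of tail-anchored proteins, had 1 read each in G418 A (1.94% and 2.45%, upper bounds 10.8% and 13.6%). In UGAU, LSM2, a ring protein of the U6 snRNP, had 0, 3 and 4 reads, or 0%, 3.97% and 5.12% (1.39 to 13.1). POLR3C, a subunit of RNA polymerase III, ARMC8 and MRPL2 had no read in G418 A, with upper bounds of 10.9%, 16.2% and 16.5%. At this depth a low RRTS cannot be told from one over 10% in these 3, nor in WDR70, GET4 and LSM2.

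Ranked by the lower bound of the fold, the top of each class came from transcripts with few untreated reads. Larger folds with lower bounds were left out by this ranking, such as that of DLD in UGAA (98.4, lower bound 16.6). SEC61G, a subunit of the channel through which proteins enter the ER, had 2, 0 and 212 reads, an RRTS of 0.700%, 0% and 60.3% (52.4 to 69.0) and a fold of 198 (54.2 to 1649). PDCD5 had 9, 3 and 345 reads, 2.47%, 0.539% and 78.6%, and a fold of 60.4 (34.1 to 118). The chaperonin subunit CCT6A had no untreated read and 59 in G418 A (87.7%), 42.6-fold higher with its untreated count at 3 reads and at least 33.6-fold higher by the exact conditional lower bound. ATG12, described above, had a fold of 187 (32.7 to 7467). In UGAU, MRPS2, a protein of the small mitochondrial ribosomal subunit, had no untreated read and 141 in G418 A (84.7%, 71.3 to 99.9), 93.0-fold higher with the untreated count at 3 (lower bound 74.7). WDR83OS (97 reads, 73.4%) and the chaperone MESD (70 reads, 36.3%) were 76.8-fold and 53.5-fold higher on the same basis (lower bounds 61.3 and 42.4). PPP2R1A, the scaffold subunit of protein phosphatase 2A, had 3, 2 and 185 reads, 0.774%, 0.275% and 37.2%, and a fold of 83.0 (34.9 to 259). The wide intervals of SEC61G and ATG12 follow from 2 and 1 untreated reads.

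A few transcripts were already covered past the stop codon without G418. GPATCH4 (UGAU) had 14, 17 and 15 reads, or 101%, 97.8% and 69.7%, in the 3 libraries, a fold of 0.702 (0.352 to 1.34). In UGAA, AL031777.3 had 48, 94 and 37 reads, or 34.8%, 34.8% and 23.8%, a fold of 0.683 (0.462 to 0.986). All 78 nt of its region are annotated as CDS in the reference, so its reads cannot be taken as readthrough. That single transcript held 5.10% of the region reads of UGAA in Untreated A and 9.97% in Untreated B. In UGAU the largest such shares were 5.47% for GPATCH4 in Untreated A and 10.9% for TCP1 in Untreated B. Among transcripts matched to the reference with no CDS in the region, the class folds were 18.9 for UGAA and 21.4 for UGAU. HLA-G had 3, 9 and 8 reads (105%, 167% and 189%), and its counts are uncertain because HLA class I genes are closely alike. SCP2, a sterol carrier protein, had 6, 9 and 15 reads (50.8%, 57.3% and 126%, a fold of 2.32 with an interval of 1.06 to 5.09), and MED13 of the Mediator complex had 2, 10 and 9 (25.6%, 81.4% and 91.8%). In these both untreated libraries had reads in the region. In others 1 untreated library decided: GCFC2 had 0, 8 and 0 reads, FAT4 3, 0 and 0, TRABD 5, 0 and 0, and the deubiquitinase gene USP7 4, 0 and 0. ZNF529 had 1, 11 and 0 reads, a fold of 0 with an upper bound of 0.835. STYXL1 had 2, 3 and 0 reads, and FBXO5, an inhibitor of the anaphase-promoting complex, had 3, 8 and 5 (16.2%, 28.4% and 23.6%), with a fold between 0.273 and 3.13.

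The members were also sorted into broad gene groups, none of which entered the rule. RAB3IP was placed with the small GTPases, SLC4A1AP with the solute carriers and UPF2 with the termination and rescue factors, although none strictly belongs there. All 4 cytosolic ribosomal protein transcripts among the members were UGAA and all were at least 4-fold higher in G418 A: RPL27A at 17.7%, RPS4X at 33.9%, RPL38 at 37.4% and RPS25 at 63.2%. Their pooled RRTS was 1.59%, 1.04% and 35.5%, where the 50 ribosomal protein transcripts with any stop codon had 0.906%, 0.703% and 9.33%. Of 12 mitochondrial ribosomal protein transcripts 10 were deep enough for a fold and 9 of them were at least 4-fold higher. Their pooled RRTS in G418 A was 38.3% for the 6 UGAA and 64.4% for the 6 UGAU members, with MRPL42 at 63.3% on 127 reads beside MRPS2 at 84.7%.

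Transcripts of the ER translocon, signal peptidase and insertion machinery lay at both ends. In UGAA the 6 members had a pooled RRTS of 6.37%, 3.30% and 74.9%, with OST4, a small subunit of oligosaccharyltransferase, at 10.9%, 5.52% and 87.2% on 46, 46 and 403 reads, and with EMC6 and SEC61G as above. In UGAU the 2 members were SSR2 at 13.6% and SEC11A at 1.75%, both with no untreated read. Of the 11 oxidative phosphorylation members 5 of the 8 deep enough were at least 4-fold higher, and NDUFA11, ATP5IF1 and UQCRC2 had no read in any library. Of the 12 small GTPase members 5 of 6 were called, of the 7 proteasome members 5 of 5, of the 11 splicing members 6 of 8, of the 5 ubiquitin and modifier members 4 of 4, and of the 16 solute carriers 6 of 7. The 15 ZNF members were too shallow for a fold. Their pooled RRTS was 5.004%, 18.8% and 62.3% in Untreated A, Untreated B and G418 A, on 4, 22 and 54 reads. Of the 22 reads in Untreated B, 11 belonged to ZNF529 and 7 to ZNF85. The median RRTS of these members was 0% in both untreated libraries. Among the 3 histone members H3F3B, a replication-independent histone, had 28.5% in G418 A, against 1.45% and 1.35% for HIST1H2BN and HIST1H2AC. The listed transcripts of these last genes are not MANE Select, so the values may not describe the usual histone stop codons. The 23 histone transcripts with any stop codon had a median of 11.2% in G418 A, and 18 of 22 were at least 4-fold higher. The 2 members among termination and rescue factors were HBS1L and UPF2, with 5 and 1 reads in G418 A, and none of the 9 selenoprotein transcripts in the set was a member. The group counts stand beside shares of 85.7% for all UGAA and 79.5% for all UGAU members, and of 70.5% over all stop codons. No group was tested.

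Pooled RRTS in G418 A was lower where the readthrough region was longer. In the lowest tercile of region lengths (18 to 42 nt) it was 41.8% for UGAA and 52.5% for UGAU, in the middle tercile (45 to 87 nt) 35.9% and 38.2%, and in the highest tercile (90 nt or more) 30.6% and 33.9%. The median over single transcripts did not fall steadily, with 31.1%, 33.3% and 28.6% for UGAA and 34.9%, 38.8% and 28.2% for UGAU in the same order. The intervals of the lowest and highest tercile overlapped at their ends in both classes, with 36.6 to 47.6 against 24.4 to 38.5 in UGAA. By the GC content of the region the values were 41.0%, 35.5% and 28.8% for UGAA and 46.4%, 35.5% and 31.0% for UGAU from the lowest to the highest tercile. The median GC content was 44.4% for UGAA and 46.7% for UGAU regions, beside 54.8% for UGAC and 56.1% for UGAG. With region length and CDS density in the fit, the ratio of UGAU over UGAA in G418 A was 1.02 (0.849 to 1.22). These splits are descriptions, and how length, GC content and CDS density go together was not tested.

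**Figure D5:**
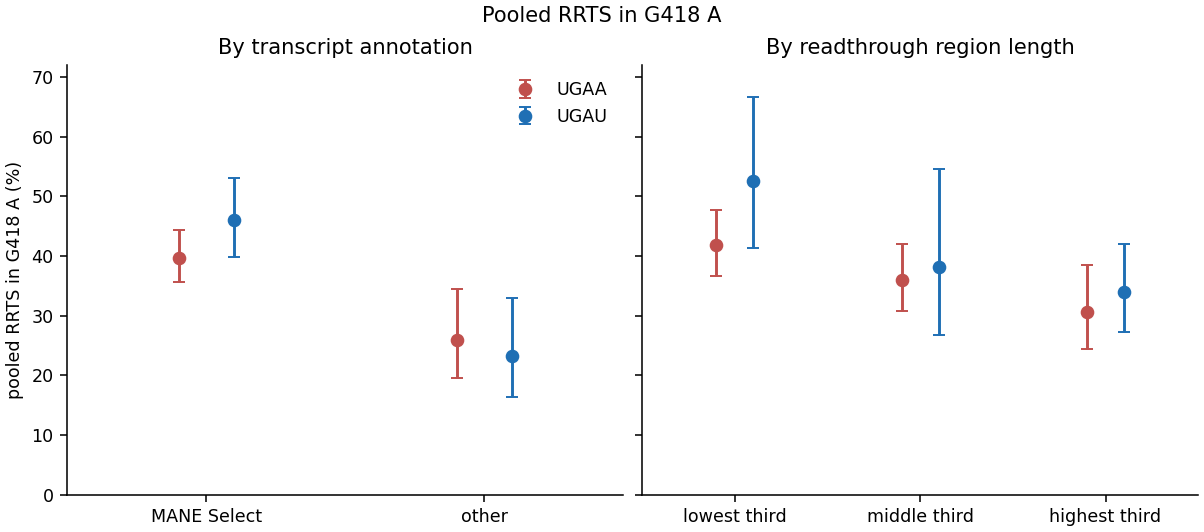
Pooled RRTS in G418 A (percent, linear axis from 0) of UGAA and UGAU transcripts, split by MANE Select annotation (left) and by terciles of readthrough region length (right), with 95% intervals over transcripts as bars. MANE Select transcripts lie at 39.7% and 46.0% against 26.0% and 23.2% for others, and pooled values fall from the shortest to the longest regions.

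Read density dropped again past the 3′TC. Over the whole rest of the 3′UTR, G418 A held a density that was 0.957% of the CDS density for UGAA and 1.08% for UGAU. That is 0.0292 (95% interval 0.0233 to 0.0366) and 0.0286 (0.0208 to 0.0393) of the density in the readthrough region, which includes the 3′TC. The rest of the 3′UTR can hold further stop codons in frame (median 3′UTR 1160 nt for UGAA and 1023 nt for UGAU). The ratio is therefore not the share of ribosomes that pass the 3′TC, which the study measured in short windows around it. UGAC and UGAG had ratios of 0.0520 (0.0425 to 0.0636) and 0.0441 (0.0359 to 0.0541). In the untreated libraries the ratio was 0.0764 and 0.120 for UGAA and 0.0866 and 0.102 for UGAU, so that a larger part of the few reads in the 3′UTR lay past the 3′TC than in G418 A. The ratio in G418 A also varied with the identity of the 3′TC. In UGAA it was 0.0167 (0.0123 to 0.0227) where the 3′TC was UAA, 0.0207 (0.0139 to 0.0307) where it was UAG and 0.0432 (0.0318 to 0.0585) where it was UGA. In UGAU the order was the same, 0.0214, 0.0247 and 0.0329, with overlapping intervals. No test was run on these ratios.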

How the data were processed

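Ribosome-protected fragments were sequenced from HEK293T cells in 3 libraries. Per the labels and the study's methods, the authors aligned reads with STAR to hg38 (base calling with CASAVA 1.8), kept 1 transcript per gene and deposited, for each transcript, RPM values, whole-number CDS counts, RPKM densities and the RRTS, a ratio of RPKM densities that leaves out the first 6 nt of the 3′UTR. Only primary alignments were kept, so reads of near-identical genes can be credited to the wrong copy. From the deposited RPM values whole reads were recovered by division (100% of values whole). The deposited whole-number count lay 1 below the recovered CDS reads for 9080 of 9099 transcripts in Untreated A, and the minimum number of CDS reads was applied to it as deposited.

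The deposited RPKM of the CDS gave the reads expected in each readthrough region, so that reads over expected reads equal the RRTS. Reads were fitted by a Poisson-type model with log expected reads as offset, the 12 stop signals as factor and sandwich standard errors over transcripts (statsmodels 0.14.6, Python 3.11.15), and tests were two-sided at a threshold of 0.05 with Benjamini-Hochberg adjustment. Single transcripts have exact Poisson 95% intervals, and their folds exact conditional intervals. Intervals of pooled values cover the spread over transcripts and those of single transcripts counting error, not the variation between cultures. Positions, the +5 nucleotide and 3′TC identity came from GENCODE version 44 on hg38, after a match of transcript ID, CDS length, stop signal and distance to the 3′TC. MANE Select status came from the same version by transcript ID alone. Genes were named by 1 rule per class: the 8 highest and 8 lowest in G418 A, the 4 highest untreated, and the 4 highest and 4 lowest folds, each by the near bound of the interval. Members and gene lists were chosen with earlier results of these data known. The fit was tested on simulated data. Alternatives covered read minimums, region length, left-out transcripts and libraries, other models and, chosen after seeing the data, MANE Select transcripts alone.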

Additional observations from a re-analysis of the deposited data

How the results depend on the processing

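No paired analysis was possible because the groups share only 1 replicate letter and the G418 group has 1 library. With 198 values recomputed for 39 results, 153 kept their direction and their side of the threshold or moved by less than the spread. The ratio of UGAU over UGAA passed the threshold in no library under any alternative. Its direction in Untreated B turned to 0.947 with a minimum of 20 CDS reads, 0.932 with 500, 0.867 with regions of at least 60 nt, 0.989 without the 1% of transcripts with the most expected reads, 0.898 with covariates and 0.891 as a ratio of mean RRTS, and the rank probability there was 0.480. In Untreated A it turned to 1.28 among transcripts with RRTS above 0. With regions of at least 60 nt, UGAA over UGAC fell short in Untreated A (0.661) and G418 A (0.815), as did UGAU over UGAG in Untreated A (1.50), and the ratio of folds became 1.33. With at least 500 CDS reads, UGAA over UGAC in G418 A (0.817) fell short and UGAA over UGAG in Untreated B (1.65) passed. As a mean over transcripts the fold of UGAU was 14.1. The cause was not tested.

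Leaving out an untreated library gave folds of 13.8 to 22.0 for UGAA and 17.3 to 23.4 for UGAU, a ratio of folds of 1.06 to 1.25, and counts at least 4-fold higher of 116 to 177 in UGAA, 37 to 62 in UGAU and 641 to 994 over all stop codons, since fewer transcripts reach 60 expected reads. With fewer transcripts tested the counts were 55 of 69 UGAU with at least 500 CDS reads, and 157 of 170 UGAA and 56 of 66 UGAU with at least 120 expected reads. Over all stop codons they were 1017 of 1375 (74.0%) with at least 500 CDS reads and 933 of 1190 (78.4%) with at least 120 expected reads. At a limit of 10-fold in place of 4-fold the counts were 199 of 293 UGAA, 62 of 112 UGAU and 910 of 1973 transcripts with any stop codon. Restricted to MANE Select transcripts, chosen after seeing the data, the ratio in G418 A was 1.16 (same fit, adjusted p = 0.327, n = 3802 transcripts) and the folds were 17.3 and 19.7. The counts were 169 of 188 UGAA and 68 of 77 UGAU, beside 1034 of 1364 (75.8%) over all stop codons.

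Shares with RRTS above 0 followed depth and length. With a minimum of 20 CDS reads they were 23.9% (UGAA, Untreated A), 71.0% (UGAA, G418 A), 18.6%, 14.2% and 68.2% (UGAU, Untreated A, Untreated B and G418 A). With 500 they were 45.5%, 33.7% and 91.3% for UGAA and 37.2%, 29.5% and 85.3% for UGAU in the same library order, and with regions of at least 60 nt 37.8%, 30.6% and 87.9%, and 29.9%, 26.2% and 87.2%. The untreated ratio of density after over before the 3′TC moved to 0.111 and 0.147 (UGAU, 20 reads), 0.0684 and 0.0885 (UGAU, 500 reads) and 0.119 and 0.164 (UGAA, 60 nt). Limits: 1 G418 library, few untreated reads per transcript, and regions short enough that single positions weigh heavily.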
